A study of Mus musculus with 68 samples.

Results

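The 8 genes followed here build and fill the first epithelium of the mouse embryo. They are Cdh1 for cell adhesion, Tjp1, Ocln, Cldn4 and Cldn6 for tight junctions, Atp1b1 for the sodium pump, and Aqp3 and Aqp8 for water passage. They were chosen by name out of the 24421 gene symbols listed in every expression table, and each was found once in all 68 tables. At compaction the blastomeres flatten against each other through E-cadherin. The outer cells then polarize, seal their borders with tight junctions and become trophectoderm (TE), while the enclosed cells form the inner cell mass (ICM). The sodium pump drives sodium across the TE, water follows through aquaporins and around the cells, and the blastocoel opens.

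The study followed somatic cell nuclear transfer (SCNT) embryos, which are made by placing the nucleus of a somatic cell in an egg whose own chromosomes were removed. Gene expression was measured by Smart-seq2, which copies polyadenylated RNA from a few cells, with 10 blastomeres in a reaction. Oocytes of BDF1 mice, written B6D2F1 in the methods of the study, received cumulus cell (CC) nuclei and were activated with strontium chloride in the presence of cytochalasin B. A second experiment injected fertilized zygotes with a morpholino (MO), an antisense oligonucleotide that blocks a transcript, against Max or Mcrs1 or with a random control MO. These zygotes were C57BL/6j. Max MO was used at a lower concentration than the control MO and Mcrs1 MO at a lower one still, so the morpholino groups differ in dose as well as in target. MAX is the DNA-binding partner of the MYC proteins, and MCRS1 is a subunit of the NSL and INO80 chromatin complexes. Both experiments used G-1 PLUS medium, and blastocysts were separated into ICM and TE by micromanipulation.

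There were 3 libraries of CCs, 5 of SCNT embryos at the 4-cell stage (4C), and 6 at each of 6 and 14 h post activation (hpa), early and late 2-cell (E2C, L2C), 8-cell (8C) and morula, and of blastocyst ICM and TE. The fertilized blastocysts gave 2 libraries of ICM and 2 of TE for each of the 3 morpholinos. The 4 control libraries are called untreated in their labels, and were taken as control MO from the methods of the study. The labels give neither the sex of the embryos nor separate cultures or animals behind the replicates, so the p-values here measure the spread between these libraries. In a pool of cells, fewer cells of a type and less RNA per cell cannot be told apart.

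Levels are given in TPM, the share of a library's transcripts that come from a gene, scaled for transcript length. Differences between groups are differences of mean log2(TPM + 1), which understate the change of genes at low TPM, and are given with their standard error. They were tested with limma over all genes with a mean of at least 1 TPM in the experiment, which were 11867 genes in SCNT embryos and 11219 in fertilized blastocysts. A gene was called higher or lower when its Benjamini-Hochberg adjusted p was under 0.05 and the difference was at least 2-fold. Where groups are said not to overlap, that was not tested, and the share of all genes so separated was not counted. All 8 genes passed the filter in fertilized blastocysts, and 7 passed it in SCNT embryos, where Aqp8 lay below it.

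The depth of the libraries was 1.00 to 5.17 aligned gigabases. The lineage labels were checked with 10 TE markers, among them Cdx2, Gata3 and Krt8, and 10 ICM markers, among them Nanog, Sox2 and Fgf4. In SCNT blastocysts the summed TE markers were 13022 to 29626 TPM in the TE and 4079 to 15849 TPM in the ICM, so the ranges overlapped. The ICM markers summed to 376 to 1386 TPM in the ICM and 132 to 452 TPM in the TE. SCNT ICM replicates 1 to 3 held 6177 to 6771 genes at 1 TPM or more, against 9011 to 10032 in ICM replicates 4 to 6. In the fertilized controls, ICM replicate 1 stood apart. Its TE markers summed to 21561 TPM, near the 26266 and 28160 TPM of the control TE, whereas ICM replicate 2 had 853 TPM. Cdx2 was at 57.7 TPM in control ICM replicate 1 and at 0.222 TPM in replicate 2, while the ICM markers summed to 1798 and 3142 TPM. Results that rest on the control ICM are therefore given with and without replicate 1. TE marker sums were 4569 and 8742 TPM in the ICM with Max MO and 17149 and 12055 TPM in the ICM with Mcrs1 MO.

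**Figure D1:**
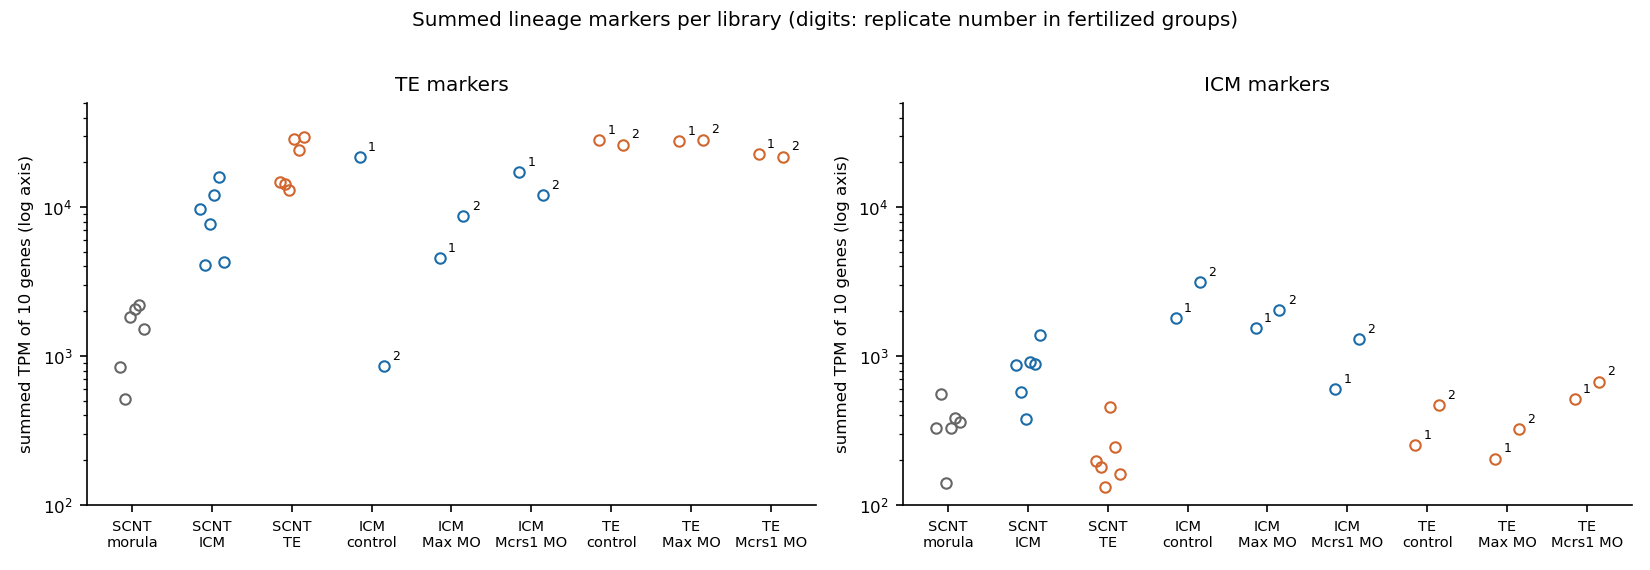
Summed TPM of the 10 TE markers and of the 10 ICM markers, on log axes. Each point is a library of the SCNT morula or of a blastocyst group, and digits give the replicate number in the fertilized groups. Control ICM replicate 1 sits at 21561 TPM of TE markers, close to the control TE, and replicate 2 at 853 TPM.

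The listed levels of the morpholino targets were checked first. In the TE, Mcrs1 was at 219 and 294 TPM with control MO, at 206 and 194 TPM with Max MO and at 41.1 and 45.5 TPM with Mcrs1 MO. Max was at 34.5 and 28.5 TPM with control MO, at 16.3 and 8.68 TPM with Max MO, and at 17.6 and 15.7 TPM with Mcrs1 MO. All 4 knockdown TE libraries were thus below both controls for Max. In the ICM, Mcrs1 was at 253 and 310 TPM with control MO, at 218 and 242 TPM with Max MO and at 86.8 and 73.4 TPM with Mcrs1 MO. Max in the ICM was at 38.0 and 8.42 TPM with control MO and at 6.82 and 0.443 TPM with Max MO. With Mcrs1 MO it was at 14.4 and 9.25 TPM, between the 2 controls.

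In the mm10 coordinates of the deposited tables, Cdh1 lies at chr8:106603368-106670246 on the plus strand, Tjp1 at chr7:65296165-65371244 on the minus strand, Ocln at chr13:100497367-100552498 on the minus strand and Cldn4 at chr5:134945124-134946934 on the minus strand. Cldn6 lies at chr17:23679365-23682446 on the plus strand, Aqp3 at chr4:41092724-41098183 on the minus strand, Aqp8 at chr7:123462294-123468003 on the plus strand and Atp1b1 at chr1:164437099-164458355 on the minus strand. A RefSeq promoter (GRCm38.p6) was matched for 7 of the 8 genes, all but Cdh1, and Ocln has 2. The 250 bases before the start are shown for Aqp3 and Cldn6, which were called in the TE with a morpholino, and for Aqp8, the only window of the set with an E-box. Capitals mark matches, on either strand, to CACGTG, the E-box bound by MYC and MAX, or to GGAATG, the TEAD motif. GCCNNNGGC, the TFAP2 motif, was searched too.

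Aqp3, chr4:41098184-41098433, minus strand: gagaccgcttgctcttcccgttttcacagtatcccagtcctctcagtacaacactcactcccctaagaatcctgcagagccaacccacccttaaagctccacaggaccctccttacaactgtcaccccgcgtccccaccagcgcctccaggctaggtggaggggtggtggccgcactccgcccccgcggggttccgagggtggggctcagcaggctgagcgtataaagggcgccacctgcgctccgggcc

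Cldn6, chr17:23679115-23679364, plus strand: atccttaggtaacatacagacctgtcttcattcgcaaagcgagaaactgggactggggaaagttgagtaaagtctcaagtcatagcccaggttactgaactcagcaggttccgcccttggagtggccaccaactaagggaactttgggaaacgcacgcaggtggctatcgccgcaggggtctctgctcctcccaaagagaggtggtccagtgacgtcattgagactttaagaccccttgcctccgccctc

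Aqp8, chr7:123462044-123462293, plus strand: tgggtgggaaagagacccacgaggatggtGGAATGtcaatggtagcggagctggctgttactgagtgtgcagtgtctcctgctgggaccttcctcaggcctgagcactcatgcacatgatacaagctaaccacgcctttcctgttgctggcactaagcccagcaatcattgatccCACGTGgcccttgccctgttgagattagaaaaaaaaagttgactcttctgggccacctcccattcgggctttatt

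The Aqp8 window held 1 TEAD motif and 1 E-box, and the Aqp3 and Cldn6 windows held none of the 3 motifs. Among all 32851 promoters of the table, 6.02% held the E-box, 12.6% the TEAD motif and 13.7% the TFAP2 motif. The remaining windows, of Atp1b1, Cldn4, Tjp1 and Ocln, held 1 match in all, to TFAP2 in one of the Ocln promoters. A match is a stretch of letters and not a measured binding site.

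In SCNT embryos the genes were compared step by step, from 8C to morula and from morula to TE and ICM. No direct comparison of 8C with the blastocyst was made. From 8C to morula, 4 of the 7 genes tested were called higher and 0 lower (Cdh1, Cldn4, Aqp3 and Atp1b1), beside 12.2% of all genes called and 8.74% called higher. The median difference of the 7 genes was 1.64, against 0.20 over all genes tested. From morula to TE, 3 of 7 were called higher and 0 lower (Cdh1, Ocln and Atp1b1), beside 21.8% of all genes called and 11% called higher, and the medians were 0.99 and -0.028. From morula to ICM, 2 of 7 were called higher and 0 lower (Ocln and Atp1b1), beside 24% of all genes called, 8.96% higher and 15% lower, and the medians were 0.015 and -0.16. Between TE and ICM, 2 of 7 were called higher in the TE and 0 lower (Cdh1 and Cldn4), beside 5.34% of all genes called and 3.87% called higher, and the medians were 0.67 and 0.084. The comparisons with the morula share its 6 libraries. From morula to ICM, 7 of the 10 TE markers were called higher too and 0 lower, with a median of 2.53. Of the 7 ICM markers tested 2 were higher and 0 lower, with a median of 0.26. The part of the TE content of the SCNT ICM in its differences from morula and TE was not tested. Over all genes, 1037 rose and 413 fell from 8C to morula, and with quantile normalization 680 rose and 730 fell. With that scaling, 1177 in place of 1063 were higher and 1290 in place of 1783 lower from morula to ICM, and 213 in place of 459 were higher and 185 in place of 175 lower in the TE than in the ICM.

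**Figure D2:**
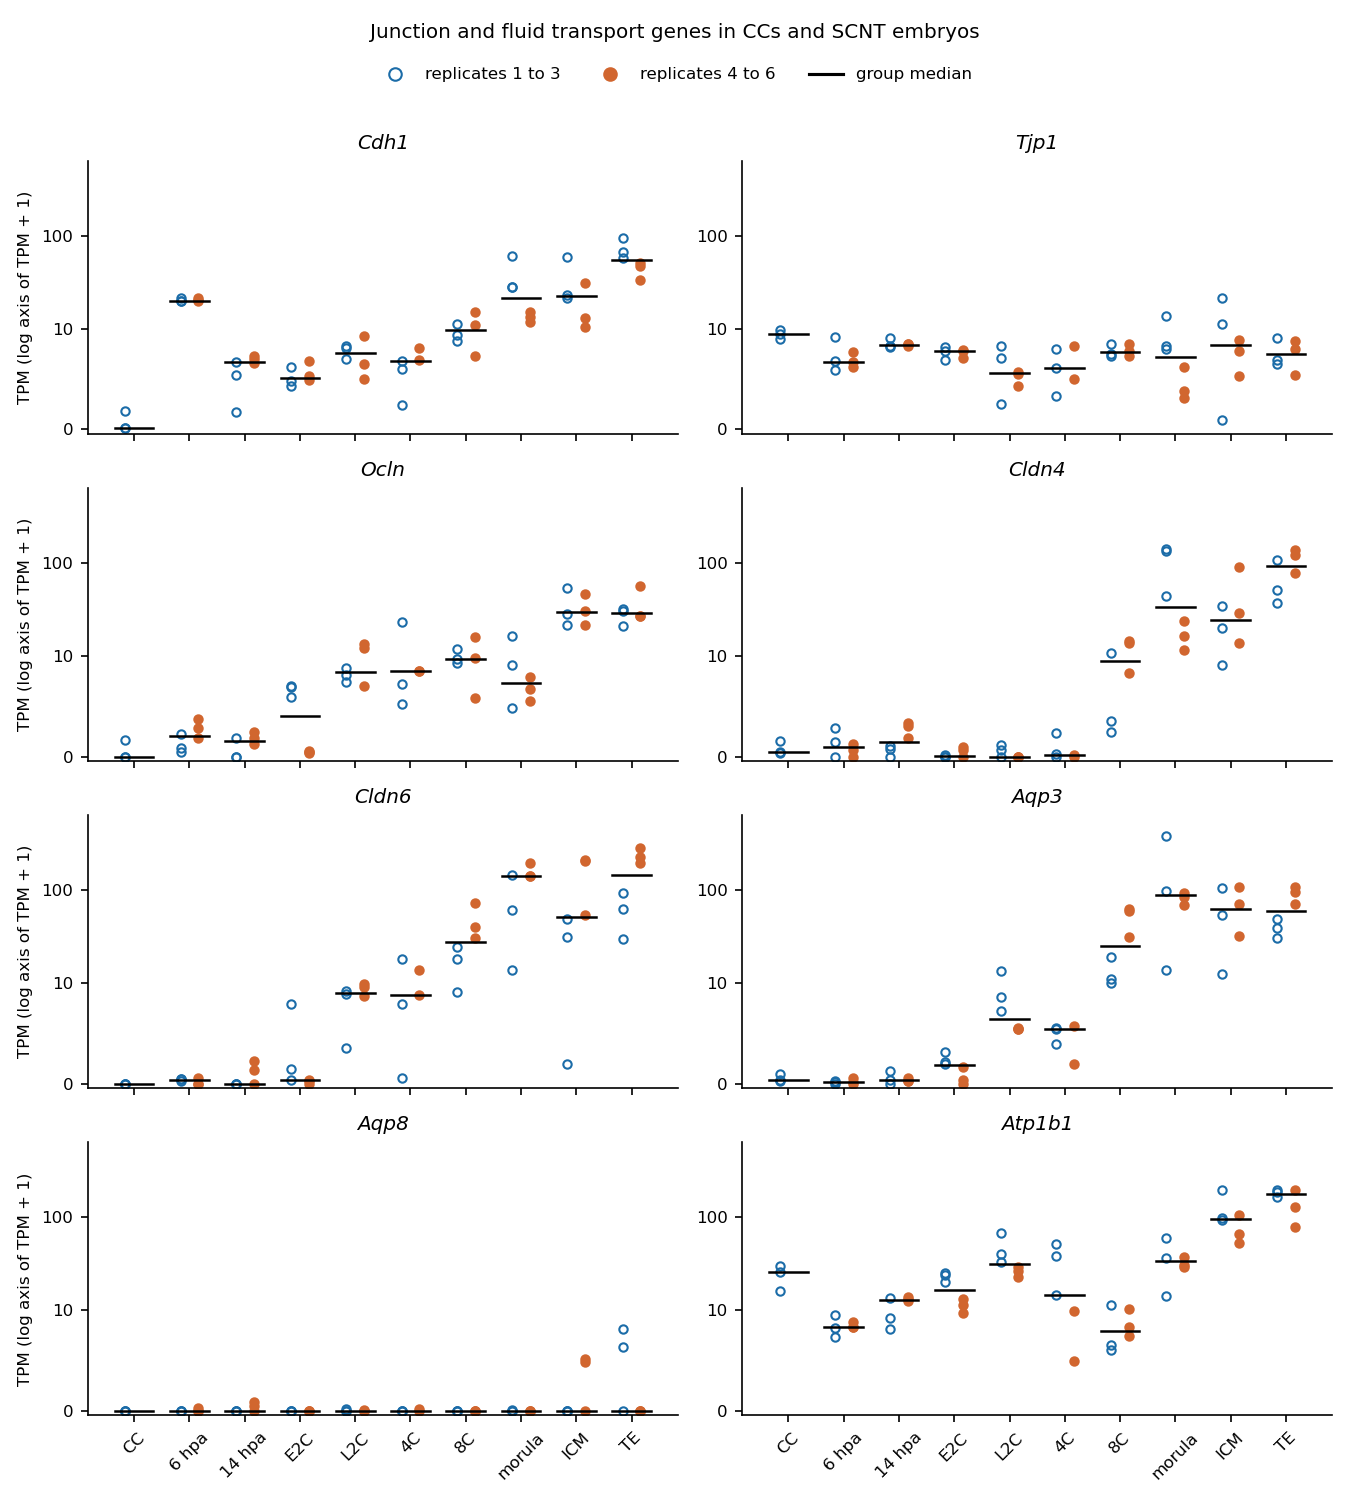
TPM of each gene, on a log axis of TPM + 1, in CCs and at each stage of SCNT embryos, with open points for replicates 1 to 3, filled points for replicates 4 to 6 and a line at the group median. Atp1b1 climbs from 3.26 to 11.4 TPM at 8C to 79.5 to 194 TPM in the TE, and Aqp8 stays at or under 6.03 TPM throughout.

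Cdh1 encodes E-cadherin, the adhesion protein of compacting blastomeres. CCs had 0.0231 to 0.560 TPM. Embryos at 6 hpa had 20.3, 20.6 and 21.9 TPM (lowest, median and highest of 6 libraries), and those from 14 hpa to 4C spanned 0.520 to 8.38 TPM. The 6 hpa libraries thus lay above every library of 14 hpa, E2C, L2C and 4C. Cdh1 was at 4.78, 9.74 and 15.6 TPM at 8C and at 11.9, 22.1 and 62.0 TPM in the morula, and the difference was 1.22 ± 0.37 (adjusted p = 0.0208). The TE had 34.2, 55.7 and 95.5 TPM, with a difference of 1.29 ± 0.37 to the morula (adjusted p = 0.00698). The 3 stages stepped upward, although the ranges of neighbouring stages overlapped. The ICM, at 10.5, 22.8 and 59.6 TPM, was 0.015 ± 0.37 from the morula (adjusted p = 1) and lay below the TE by 1.28 ± 0.37 (adjusted p = 0.0294). In the order of the mean levels, from TE (59.6 ± 21.0, SD, n = 6) over morula, ICM, 6 hpa, 8C, L2C, 4C, 14 hpa and E2C to CC, the ranges of neighbours overlapped except between 6 hpa and 8C and between E2C and CC. The step from 8C to morula was 1.97 (adjusted p = 0.0178) within replicates 1 to 3 and 0.47 (adjusted p = 0.465) within replicates 4 to 6, and its call was lost without replicate 1, 2, 3 or 4 (0.91 to 1.2, adjusted p 0.0521 to 0.167). The call between morula and TE was lost within replicates 1 to 3 (0.94, adjusted p = 0.208) and that between TE and ICM was lost there (1.19, adjusted p = 0.162) and without replicate 1, 2, 4 or 6 (1.11 to 1.25, adjusted p 0.0713 to 0.124).

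Tjp1 encodes ZO-1, the scaffold under tight junctions, and its level changed in no consistent direction. The group means lay between 3.18 ± 1.93 TPM at L2C (SD, n = 6) and 8.68 ± 1.01 TPM in CCs (SD, n = 3). It was at 4.70, 5.29 and 6.74 TPM at 8C, at 1.13, 4.62 and 14.1 TPM in the morula and at 2.70, 5.07 and 7.75 TPM in the TE. The ICM values, at 0.245, 6.41 and 22.0 TPM, enclosed all of these. No call was made in any of the 4 comparisons, where the differences lay between -0.36 and 0.33. Within replicates 4 to 6 it was lower in the morula than at 8C by -1.22 (adjusted p = 0.0166) and higher than the morula in TE (1.06, adjusted p = 0.027) and ICM (1.02, adjusted p = 0.033). Within replicates 1 to 3 these 3 differences had the opposite sign and were not called.

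Ocln encodes occludin, a membrane protein of the tight junction strand, and it came up at the blastocyst and not at the morula. Its values were 3.01, 9.29 and 16.3 TPM at 8C and 2.18, 4.83 and 16.8 TPM in the morula, with a difference of -0.64 ± 0.43 (adjusted p = 0.364). The TE had 21.5, 29.3 and 57.2 TPM and the ICM 21.8, 30.1 and 54.5 TPM. Every blastocyst library was above every morula library, by 2.35 ± 0.43 in the TE (adjusted p = 2.95e-05) and 2.39 ± 0.43 in the ICM (adjusted p = 2.27e-05), and TE and ICM differed by -0.039 ± 0.43 (adjusted p = 1). Both calls held under all 16 alternatives tried. Earlier, CCs, 6 hpa and 14 hpa had at most 1.47 TPM, E2C at most 4.36 TPM, and L2C and 4C 2.47 to 23.4 TPM. The mean levels fell in the order ICM (34.1 ± 13.5), TE (32.8 ± 12.5), 8C, 4C, L2C, morula, E2C, 6 hpa, 14 hpa and CC, and the ranges of neighbours overlapped except between TE and 8C.

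Cldn4 encodes claudin 4, a strand-forming claudin, and it was near 0 until 4C. The highest value of any library from CC to 4C was 1.23 TPM. It was at 0.782, 8.65 and 14.8 TPM at 8C and at 11.7, 34.6 and 139 TPM in the morula, a difference of 2.63 ± 0.49 (adjusted p = 0.000124). The TE had 38.0, 93 and 137 TPM, and the ICM 7.96, 25.1 and 91.7 TPM. The TE was above the ICM by 1.66 ± 0.49 (adjusted p = 0.0311), with overlapping ranges, and was 0.99 ± 0.49 from the morula (adjusted p = 0.141). The morula libraries split by replicate number, with 44.8 to 139 TPM in replicates 1 to 3 and 11.7 to 24.4 TPM in replicates 4 to 6. Accordingly, the step from 8C to morula was 4.69 (adjusted p = 7.96e-05) in the former and 0.56 (adjusted p = 0.422) in the latter, and TE against morula was -0.65 (adjusted p = 0.547) and 2.63 (adjusted p = 8.09e-05). The call between TE and ICM was lost within replicates 1 to 3 (1.67, adjusted p = 0.105) and without replicate 1, 4 or 6 (1.28 to 1.56, adjusted p 0.104 to 0.142).

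Cldn6 encodes claudin 6, a claudin of early epithelia, and its values spread widely within the stages. From CC to E2C all libraries were under 1 TPM, apart from E2C replicate 2 at 5.68 TPM, and L2C and 4C had 0.157 to 18.8 TPM. It was at 7.96, 28.1 and 73.8 TPM at 8C, at 14.1, 140 and 192 TPM in the morula, at 30.8, 142 and 273 TPM in the TE and at 0.610, 52.5 and 207 TPM in the ICM. The ranges of all 4 groups overlapped, and the difference of 1.70 ± 0.72 between morula and 8C was not called (adjusted p = 0.112), nor was that of 1.42 ± 0.72 between TE and ICM (adjusted p = 0.287). In the TE, replicates 1 to 3 had 30.8 to 92.8 TPM and replicates 4 to 6 had 192 to 273 TPM. Within replicates 4 to 6 alone the step from 8C to morula was 1.75 (adjusted p = 0.00185), and within replicates 1 to 3 it was 1.64 (adjusted p = 0.402).

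Atp1b1 encodes the beta 1 subunit of the sodium pump, which carries the catalytic subunit to the membrane, and it rose at both steps from 8C to the TE. It was already present in CCs, at 16.3 to 30.7 TPM, and at 6 hpa, at 4.84 to 8.75 TPM. L2C had 23.6, 32.1 and 69.1 TPM and 8C had 3.26, 5.67 and 11.4 TPM, so that 8C lay below all L2C libraries. The morula had 14.6, 34.3 and 60.2 TPM, the ICM 54.0, 96.0 and 193 TPM, and the TE 79.5, 173 and 194 TPM. The morula was above 8C by 2.25 ± 0.41 (adjusted p = 8.25e-05), the TE above the morula by 2.16 ± 0.41 (adjusted p = 5.26e-05) and the ICM above the morula by 1.49 ± 0.41 (adjusted p = 0.00458). Ranges did not overlap between 8C and morula or between morula and TE, and overlapped between morula and ICM. The difference of 0.67 ± 0.41 between TE and ICM was not called (adjusted p = 0.409). The 3 calls held under all 16 alternatives tried.

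Aqp3 encodes an aquaporin that passes water and glycerol, and it came up before the blastocyst. Up to E2C no library was above 1.12 TPM, and L2C and 4C had 0.603 to 13.7 TPM. It was at 10.0, 25.6 and 63.1 TPM at 8C and at 14.0, 88.8 and 369 TPM in the morula, a difference of 1.64 ± 0.48 (adjusted p = 0.0165). The TE, at 31.4, 60.9 and 108 TPM, and the ICM, at 12.7, 62.7 and 109 TPM, overlapped the morula and each other. The TE was -0.44 ± 0.48 from the morula (adjusted p = 0.591) and 0.21 ± 0.48 from the ICM (adjusted p = 0.951). The step from 8C to morula was 2.56 (adjusted p = 0.0424) within replicates 1 to 3 and 0.72 (adjusted p = 0.164) within replicates 4 to 6, and its call was lost without replicate 1 (1.33, adjusted p = 0.111), replicate 2 (0.98, adjusted p = 0.221) or replicate 4 (1.69, adjusted p = 0.0572).

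Aqp8 encodes an aquaporin that passes water and ammonia, and SCNT embryos had little of it. No library from CC to morula was above 0.229 TPM, and most were listed at 0. In the ICM, replicates 5 and 6 had 2.44 and 2.21 TPM, and in the TE, replicates 2 and 3 had 3.55 and 6.03 TPM, with all other blastocyst libraries listed at 0. Under the filter it had no limma test, and two-sided exact permutation tests over 924 splits gave p = 0.455 for TE against morula, 0.455 for ICM against morula, 0.697 for TE against ICM and 1 for morula against 8C. When the 10 groups were ordered by mean level, neighbouring groups overlapped throughout for Aqp8, Tjp1, Cldn4, Cldn6, Atp1b1 and Aqp3. The means were highest in the TE for Cldn4 (89.0 ± 39.2 TPM), Cldn6 (146 ± 96.8 TPM) and Atp1b1 (156 ± 44.8 TPM), in the morula for Aqp3 (122 ± 125 TPM) and in CCs for Tjp1.

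Partners of the 8 genes were taken from lists of known function, and their counts are read beside the share of all genes called. From 8C to morula, where 8.74% of all genes were higher and 3.48% lower, 3 of 10 adherens junction partners tested were higher and 0 lower, among them Epcam (2.03) and Ctnna1 (1.31), which encodes alpha catenin. Of 16 tight junction partners 6 were higher and 1 lower, with Tjp3 at 1.96 and the junction adaptor Cgn at 1.25. Of 16 apical polarity genes 4 were higher and 0 lower, with Slc9a3r1 at 2.05 and Pard6b at 1.89. Desmosome and keratin genes were higher in 5 and lower in 0 of 9, with Krt8 at 2.95 and Pkp2 at 2.55, and their median was 1.42. Of the 8 sodium pump and ion transport genes 0 were higher and 1 lower, the cotransporter Slc12a2 at -2.01, and of 2 other aquaporins 1 was lower, Aqp11 at -2.23. The median differences of the first 3 lists were 0.80, 0.25 and 0.69, beside 0.20 over all genes.

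Between morula and TE, with 11% of all genes higher and 10.8% lower, the same lists gave 4 of 10 adherens junction, 7 of 16 tight junction, 8 of 16 polarity, 3 of 8 pump and 5 of 9 desmosome and keratin genes higher, and 0, 1, 0, 1 and 0 lower. Cldn3, a claudin that seals tight junctions, was at 108.5 TPM in the TE and 1.09 TPM in the morula on average (5.29), and Cgn at 136 and 22.4 TPM (2.54). The desmosomal cadherin Dsc2 (4.15), Epcam (3.30) and the pump regulator Fxyd4 (2.09) were higher too. In the ICM 3, 5, 5, 3 and 5 members of these lists were higher than in the morula and 0, 1, 2, 1 and 1 lower, beside 8.96% and 15% of all genes, and 2 of 2 other aquaporins were lower, Aqp9 by -2.53 and Aqp11 by -2.07. Between TE and ICM few members differed, namely Jam2 (-2.57) and Prkci (-1.67), lower in the TE, and Pard6b (1.52) and Pkp2 (3.48), higher in the TE, among those named here, and in all 3 genes of the lists were higher and 2 lower, beside 3.87% and 1.47% of all genes.

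In fertilized control blastocysts none of the 8 genes was called between control TE and control ICM by limma (0 of 8, beside 2.92% of all genes called and 2465 genes at an unadjusted p under 0.05). The median difference of the 8 was 0.69, against 0.013 over all genes. Cldn4 was at 336 and 278 TPM in the TE and at 250 and 41.3 TPM in the ICM (1.57 ± 0.62, adjusted p = 0.165). Atp1b1 was at 334 and 215 TPM in the TE and at 161 and 130 TPM in the ICM (0.88 ± 0.30, adjusted p = 0.12). Both TE libraries were above both ICM libraries for these 2 genes, and also for Cldn6 and Aqp3, which were not called. Without ICM replicate 1, the library with TE markers, 20.3% of all genes were called and 3 of the 8 genes, with Cldn4 higher in the TE by 2.86 (adjusted p = 0.00023), Tjp1 higher by 1.62 (adjusted p = 0.0309) and Aqp8 lower by -4.49 (adjusted p = 0.00167). Aqp8 was listed at 0 in ICM replicate 1 and at 46.6 TPM in replicate 2, against 1.77 and 0.623 TPM in the TE. Among the partners, Epcam was higher in the control TE (1.35, adjusted p = 0.026), and the polarity genes Pard6g (-3.35, adjusted p = 0.0495) and Ezr (-1.95, adjusted p = 0.0308) were lower. Of 14 tight junction genes 1 was called higher, and without ICM replicate 1 it was 8 of 14, together with 9 of the 10 TE markers. Without ICM replicate 2 it was 0 of 14, and Pard6g (-3.53, adjusted p = 0.0781) and Ezr (-1.59, adjusted p = 0.0741) were no longer called.

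Injection of Max MO or Mcrs1 MO went with less Aqp3 in the TE. With control MO, Aqp3 was at 190 and 275 TPM. With Max MO it was at 62.3 and 57.5 TPM, and with Mcrs1 MO at 87.6 and 75.5 TPM. All 4 knockdown libraries lay below both control libraries. The difference was -1.92 ± 0.26 for Max MO (adjusted p = 0.0167) and -1.48 ± 0.26 for Mcrs1 MO (adjusted p = 0.0145). Both comparisons use the same 2 control TE libraries. Each call was lost when any 1 of its 4 libraries was left out. Such a fit leaves 1 library in a group, and fewer of all genes were called in it too. The differences then were -2.18 to -1.65 for Max MO and -1.75 to -1.22 for Mcrs1 MO.

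Cldn6 was higher in the TE with Mcrs1 MO. It was at 69.6 and 136 TPM in the control TE, at 146 and 152 TPM with Max MO, and at 363 and 288 TPM with Mcrs1 MO. The Mcrs1 MO libraries lay above all the others. The difference was 1.72 ± 0.44 for Mcrs1 MO (adjusted p = 0.0448) and 0.61 ± 0.44 for Max MO, which was not called (adjusted p = 0.479). The call for Mcrs1 MO was lost in 9 of 12 alternatives, with differences of 1.25 to 2.20. Among them were the fit with the replicate number as a block (adjusted p = 0.0559) and each removal of 1 library. Each such removal leaves 1 library in a group, and fewer of all genes were called then too.

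In all, 1 of the 8 genes was called in the TE with Max MO, beside 2.5% of all genes called, 1.04% higher and 1.45% lower, and 2 with Mcrs1 MO, beside 5.08% of all genes called, 1.77% higher and 3.31% lower. The median differences of the 8 genes were -0.41 and -0.87, beside a shift of the median over all genes of -0.19 and -0.24. With quantile normalization, which gives all libraries the same distribution of values, 91 genes were higher and 82 lower with Max MO, in place of 117 and 163, and 173 were higher and 156 lower with Mcrs1 MO, in place of 199 and 371.

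The remaining genes of the set did not pass the test in the TE. Cdh1 was at 146 and 134 TPM with control MO, at 69.8 and 65.8 TPM with Max MO (-1.03 ± 0.31, adjusted p = 0.0944) and at 78.9 and 61.0 TPM with Mcrs1 MO (-1.0 ± 0.31, adjusted p = 0.079). Tjp1 was at 22.2 and 25.2 TPM with control MO, at 10.6 and 9.78 TPM with Max MO (-1.14 ± 0.52, adjusted p = 0.244) and at 8.62 and 8.76 TPM with Mcrs1 MO (-1.35 ± 0.52, adjusted p = 0.135). For both genes all 4 knockdown libraries lay below both controls. Atp1b1 was at 334 and 215 TPM with control MO, at 201 and 158 TPM with Max MO (-0.58 ± 0.30, adjusted p = 0.304) and at 150 and 168 TPM with Mcrs1 MO (-0.75 ± 0.30, adjusted p = 0.151), again below both controls. Cldn4 was at 336 and 278 TPM, at 276 and 252 TPM with Max MO (-0.21 ± 0.62, adjusted p = 0.892) and at 156 and 109 TPM with Mcrs1 MO (-1.22 ± 0.62, adjusted p = 0.247). Ocln was at 88.0 and 53.2 TPM, at 54.8 and 60.3 TPM with Max MO and at 53.6 and 67.1 TPM with Mcrs1 MO, and the 3 groups overlapped (-0.25 ± 0.41 and -0.19 ± 0.41). Aqp8 was at 1.77 and 0.623 TPM with control MO, at 0.250 and 2.60 TPM with Max MO, and at 30.7 and 10.8 TPM with Mcrs1 MO. The Mcrs1 MO libraries of Aqp8 stood above the rest, with a difference of 3.19 ± 1.34 that was not called (adjusted p = 0.169). The marker sums of these libraries differed as well, with ICM markers at 515 to 675 TPM and TE markers at 21888 to 22781 TPM with Mcrs1 MO, against 253 to 471 and 26266 to 28160 TPM in the control TE and 205 to 323 and 27891 to 28452 TPM with Max MO. Their part in the differences was not tested.

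**Figure D3:**
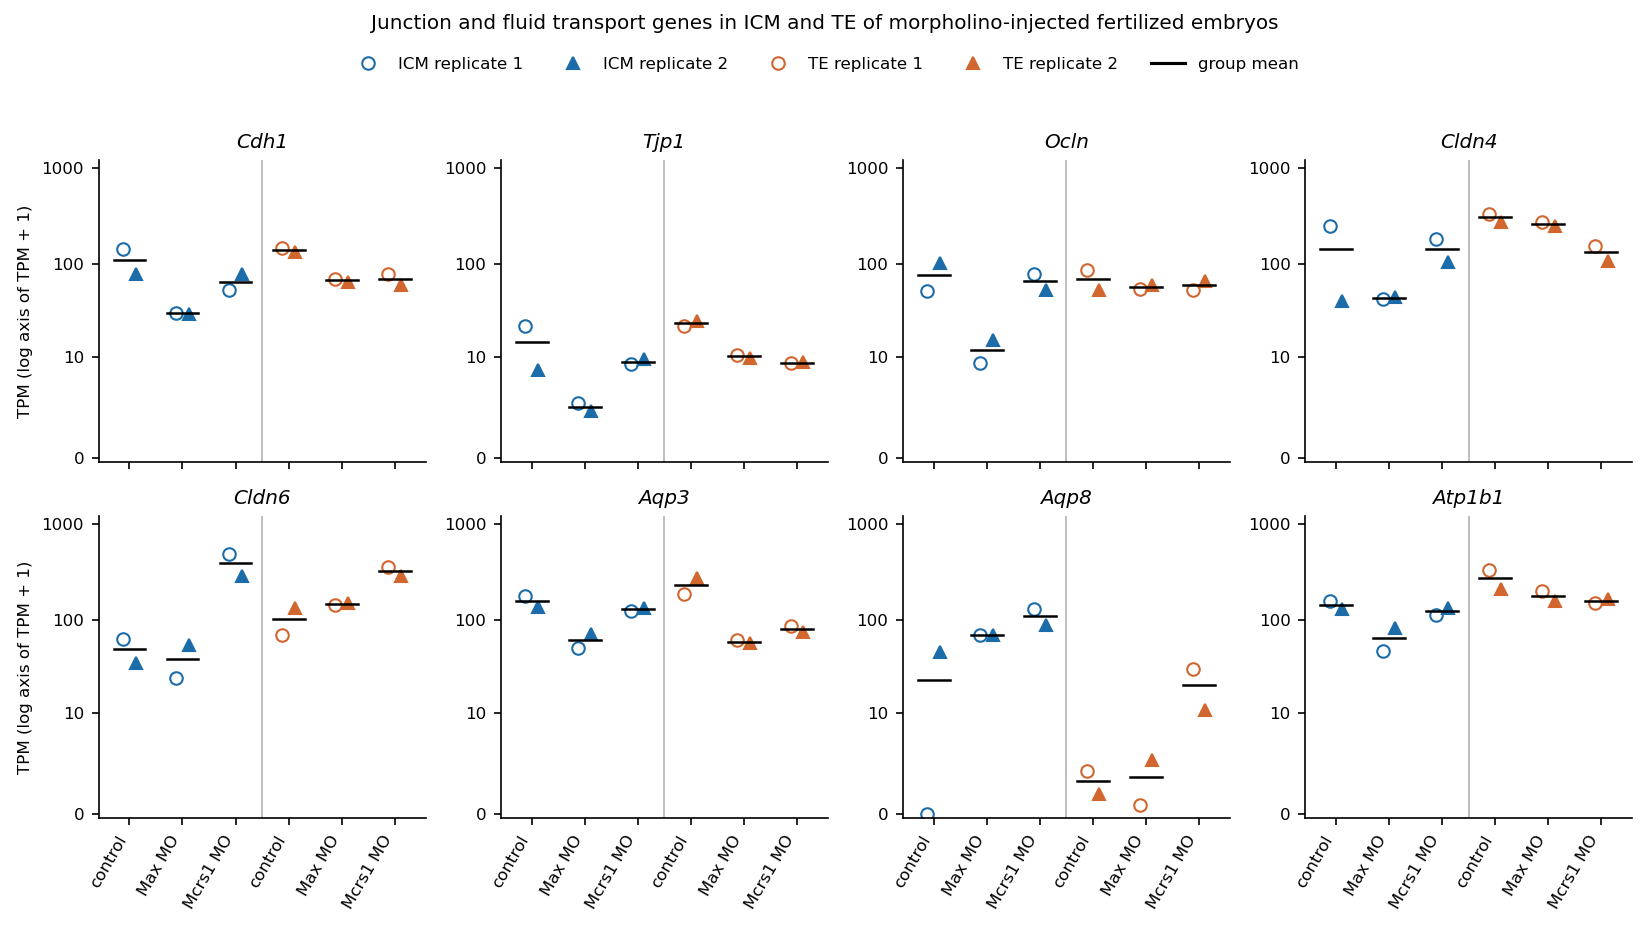
TPM of each gene, on a log axis of TPM + 1, in the ICM and TE of fertilized blastocysts by morpholino, with 1 point per library (circle, replicate 1; triangle, replicate 2) and a line at the group mean. Aqp3 in the TE is at 190 and 275 TPM in controls and at 57.5 to 87.6 TPM in the 4 knockdown libraries, and Cldn6 is at 287 to 495 TPM in the 4 Mcrs1 MO libraries of either lineage.

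The TE with Mcrs1 MO was also set directly against the TE with Max MO, a comparison added after the levels were seen. By limma 0 of the 8 genes were called, beside 0.0267% of all genes, with 617 genes at an unadjusted p under 0.05. Cldn6 was higher with Mcrs1 MO by 1.11 ± 0.44 (adjusted p = 0.824), Aqp8 by 3.19 ± 1.34 (adjusted p = 0.843), and Cldn4 was lower by -1.01 ± 0.62 (adjusted p = 0.962). The libraries of the 2 groups did not overlap for these 3 genes, nor for Tjp1 and Aqp3. How many of all genes were so separated was not counted, and a difference between the morpholinos was not shown.

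In the ICM, Max MO went with lower levels of most of the set. Of the 8 genes 5 were called lower and 0 higher, beside 23.7% of all genes called and 15.1% called lower, and the median difference was -1.27, against -0.21 over all genes. Under quantile normalization the calls over all genes were 1134 higher and 1021 lower, in place of 970 and 1689. Ocln was at 51.9 and 103 TPM with control MO and at 8.49 and 15.8 TPM with Max MO (-2.55 ± 0.41, adjusted p = 0.0021). Cdh1 was at 144 and 78.4 TPM with control MO and at 30.9 and 29.6 TPM with Max MO (-1.78 ± 0.31, adjusted p = 0.00295). For each of the 5 genes both Max MO libraries were below both control libraries. Tjp1 was at 22.3 and 7.05 TPM with control MO and at 2.73 and 2.03 TPM with Max MO (-2.03 ± 0.52, adjusted p = 0.016). Aqp3 was at 181 and 137 TPM with control MO and at 51.6 and 71.4 TPM with Max MO (-1.36 ± 0.26, adjusted p = 0.00446). Atp1b1 was at 161 and 130 TPM with control MO and at 48.1 and 83.7 TPM with Max MO (-1.17 ± 0.30, adjusted p = 0.0162). Cldn4, at 250 and 41.3 TPM with control MO and at 43.5 and 45.4 TPM with Max MO, was not called (-1.18 ± 0.62, adjusted p = 0.177), and its difference was 0.10 (adjusted p = 0.832) without control replicate 1 and -2.47 (adjusted p = 0.000675) without control replicate 2, where 29.5% of all genes were called.

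Without control ICM replicate 1, the calls of Ocln (-3.04, adjusted p = 0.000824), Cdh1 (-1.35, adjusted p = 0.00612), Aqp3 (-1.16, adjusted p = 0.0114) and Atp1b1 (-1.02, adjusted p = 0.0427) stayed, beside 29.9% of all genes called, and that of Tjp1 was lost (-1.26, adjusted p = 0.0578). Tjp1 was also lost without Max MO replicate 1 (-2.18, adjusted p = 0.0502) or replicate 2 (-1.88, adjusted p = 0.0771), and Atp1b1 without Max MO replicate 1 (-0.78, adjusted p = 0.123). These levels moved while the TE marker sums of the groups differed, at 853 and 21561 TPM in controls and 4569 and 8742 TPM with Max MO, and the part of the TE content in the differences was not tested.

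With Mcrs1 MO in the ICM, 1 of the 8 genes was called, Cldn6, beside 10.1% of all genes called, 4.88% higher and 5.21% lower, and the median difference of the 8 was -0.19, against -0.046 over all genes. Cldn6 was at 64.0 and 35.3 TPM with control MO, at 24.5 and 54.4 TPM with Max MO and at 495 and 287 TPM with Mcrs1 MO. Both Mcrs1 MO libraries were far above the other 4, by 2.96 ± 0.44 over control (adjusted p = 0.00545). The call was lost without Mcrs1 MO replicate 1 (2.57, adjusted p = 0.0662) and was kept without control replicate 1 (3.38, adjusted p = 0.0011), beside 22.1% of all genes called. Ocln, at 79.0 and 53.6 TPM, Aqp3, at 125 and 135 TPM, and Atp1b1, at 115 and 135 TPM, differed from control by -0.16 to -0.28 and were not called. Tjp1, at 8.30 and 9.44 TPM, was -0.48 ± 0.52 from control (adjusted p = 0.578). Cdh1, at 53.2 and 78.3 TPM, was -0.71 ± 0.31 from control (adjusted p = 0.157). Its difference was -0.28 without control replicate 1 and -1.14 without control replicate 2. Cldn4 depended on the control library, with 184 and 105 TPM under Mcrs1 MO and a difference of 0.44 ± 0.62 (adjusted p = 0.672), which was 1.72 (adjusted p = 0.00468) without control replicate 1 and -0.85 (adjusted p = 0.1) without control replicate 2.

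Aqp8 in the ICM rested on the control libraries as well. It was listed at 0 in control replicate 1, the library with TE markers, and was at 46.6 TPM in replicate 2. Max MO gave 70.4 and 69.3 TPM and Mcrs1 MO gave 133 and 90.0 TPM. All 4 knockdown libraries were above both controls, with differences of 3.36 ± 1.34 (adjusted p = 0.0847) and 4.00 ± 1.34 (adjusted p = 0.0736) that were not called. Without control replicate 1 the difference was 0.57 for Max MO and 1.21 for Mcrs1 MO. Without control replicate 2 it was 6.15 for Max MO and 6.78 for Mcrs1 MO. Across the fertilized libraries Aqp8 was thus listed between 46.6 and 133 TPM in 5 of 6 ICM libraries and between 0.250 and 30.7 TPM in the 6 TE libraries.

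Whether a morpholino acted differently in TE and ICM was tested by the difference of the differences. By limma 0 of the 8 genes were called for either morpholino, beside 0% of all genes, with 1473 genes at an unadjusted p under 0.05 for Max MO and 972 for Mcrs1 MO. Ocln came nearest for Max MO, with a change in the TE above that in the ICM by 2.31 ± 0.58 (adjusted p = 0.187), and Aqp3 for Mcrs1 MO, with -1.21 ± 0.37 (adjusted p = 0.442). Without control ICM replicate 1, Ocln was called for Max MO (2.79, adjusted p = 0.0183), beside 4.51% of all genes, and Cldn4 (-2.94, adjusted p = 0.0024) and Aqp3 (-1.41, adjusted p = 0.0424) for Mcrs1 MO, beside 7.4% of all genes. Without control ICM replicate 2, Cldn4 (2.25, adjusted p = 0.0241) and Aqp8 (-6.15, adjusted p = 0.0172) were called for Max MO, beside 3.18% of all genes.

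**Figure D4:**
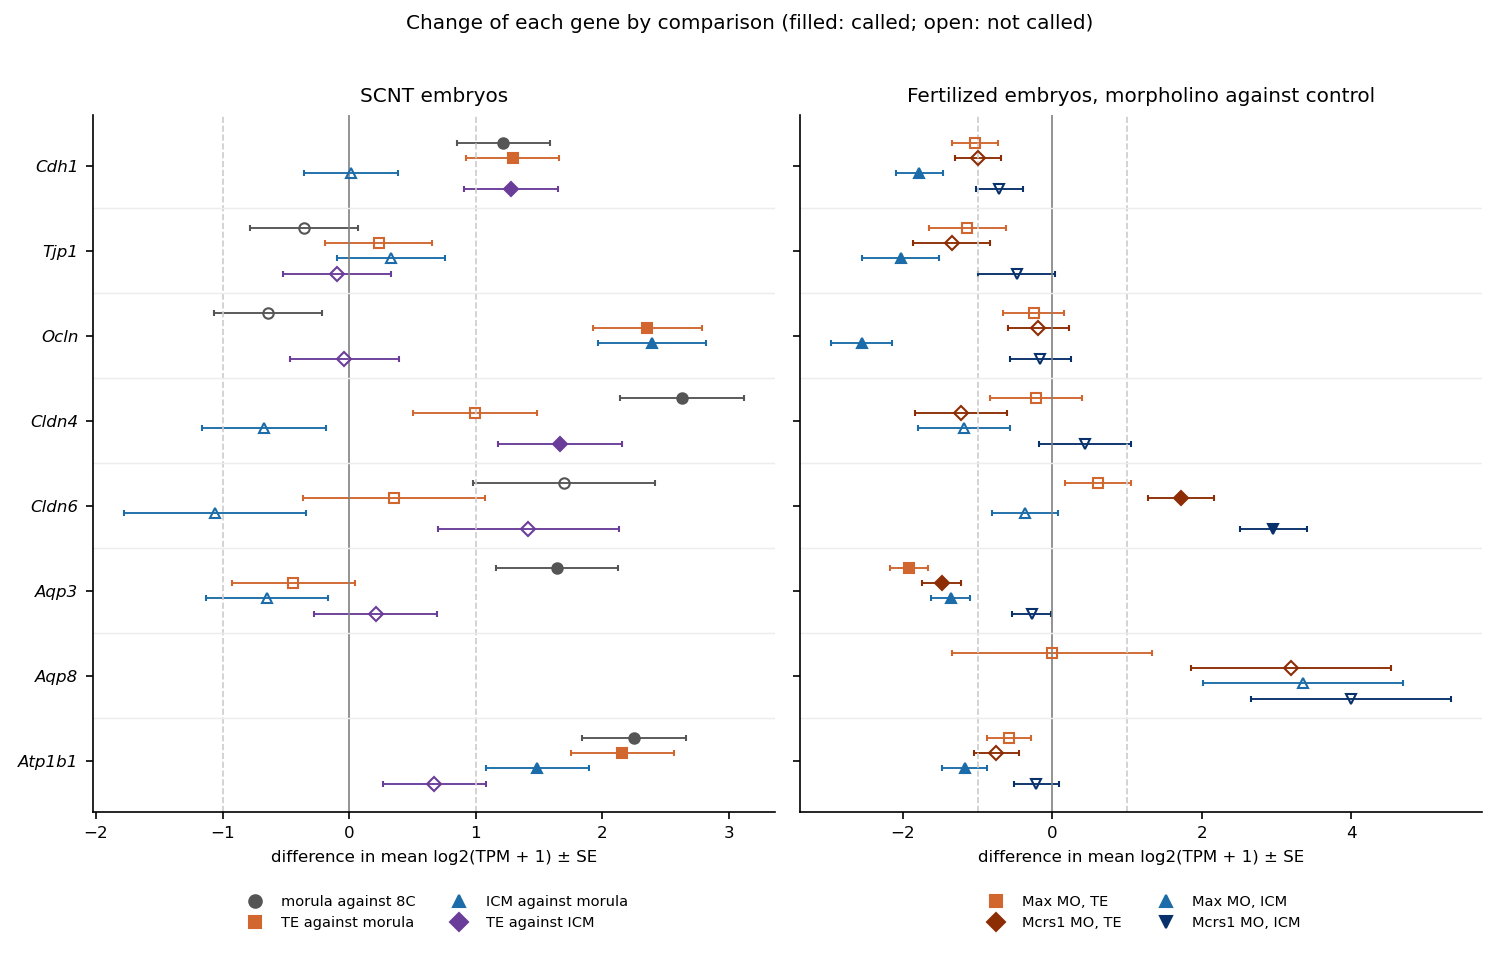
Difference in mean log2(TPM + 1) with its standard error for each gene, with the SCNT comparisons and the morpholino comparisons in separate panels and filled points for called differences. Atp1b1 is called in 3 of 4 SCNT comparisons, and Aqp3 lies at -1.92 and -1.48 in the TE with Max MO and Mcrs1 MO.

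Few partners of the set were called in the TE with the morpholinos. Cgn, the junction adaptor cingulin, was lower with Max MO (-1.56, adjusted p = 0.0432) and with Mcrs1 MO (-1.82, adjusted p = 0.0177), at 249 and 226 TPM in controls, 87.1 and 73.3 TPM with Max MO and 65.9 and 66.9 TPM with Mcrs1 MO. The 4 knockdown libraries lay below both controls, as for Aqp3. It was the 1 of 14 tight junction partners tested that was called, and Jup, which encodes plakoglobin, was the 1 of 10 adherens junction partners called with Mcrs1 MO (-1.60, adjusted p = 0.0297). Of the 17 polarity, 8 ion transport, 3 aquaporin and 9 desmosome and keratin genes tested, 0 were called by limma in the TE. At an unadjusted p under 0.05 there were 3, 1, 1 and 0 of them with Max MO and 5, 2, 2 and 0 with Mcrs1 MO. The medians of the polarity genes were -0.68 and -0.67, below the all-gene -0.19 and -0.24.

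In the ICM with Max MO, 3 of 10 adherens junction, 3 of 14 tight junction, 3 of 17 polarity, 1 of 8 ion transport and 1 of 9 desmosome and keratin genes were called lower and 0 higher, beside 15.1% of all genes called lower and 8.65% higher. They included Ctnnd1, or p120 catenin (-2.01), Marveld2, or tricellulin (-2.77), and Mark2 (-2.87). The difference of Marveld2 was -3.88 without control ICM replicate 1 and -1.67 without control ICM replicate 2. Without control ICM replicate 1 the lists gave 2, 3, 6, 2 and 0 lower with Max MO and 0, 1, 1, 0 and 4 higher, beside 29.9% of all genes called, and 6 of the 10 TE markers were higher and 1 lower. With Mcrs1 MO, 1 of 14 tight junction genes was called lower, Cgn (-1.24, adjusted p = 0.044). Without control ICM replicate 1 the call of Cgn was lost (-0.64, adjusted p = 0.111), and 7 of 9 desmosome and keratin genes were higher and 0 lower, in place of 0 and 0 with it, beside 22.1% of all genes called. In that setting the median was 4.17 for the TE markers against 3.20 for the desmosome and keratin genes, and Krt8 and Krt18 are in both lists. Without control ICM replicate 2 these medians were -0.99 and -0.89. With Max MO they were 2.56 and 0.94 without control ICM replicate 1, and -2.50 and -2.17 without replicate 2. The direction for these 2 lists thus depended on which control ICM library was kept.

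The 8 genes had different companions across SCNT development. For each, the 3 genes with the highest Pearson correlation of log2(TPM + 1) over the 53 SCNT libraries were taken among 7787 genes with a mean of at least 5 TPM, and the libraries share their stages and scaling. Cdh1 was nearest to Jarid2 (0.87), Psmd1 (0.84) and Kctd5 (0.83), and Tjp1 reached at most 0.58, with Cops2. Cldn4 and Aqp3 both had Psap among their 3, at 0.95 and 0.94, beside Ass1 and Gm5424 (0.95 each) for Cldn4 and Epas1 (0.95) and Echdc2 (0.94) for Aqp3. The mean levels of Ass1 and Gm5424 were close to each other in every group, at 362 and 380 TPM in the SCNT TE. Ocln was nearest to 1110004F10Rik (0.90), Decr2 (0.90) and Dkkl1 (0.89), and Atp1b1 to Klf6 (0.88), Iqgap1 (0.88) and Psmb9 (0.87). Cldn6 was nearest to Bysl, Dohh and Tom1 (0.92 each). Aqp8, with most libraries at 0, reached at most 0.60, with 4930486L24Rik.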

How the data were processed

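RNA-seq tables of 68 Smart-seq2 libraries were used. The authors trimmed reads with Cutadapt (version 1.16 in the processing notes), mapped them to mm10 with HISAT2 and made one StringTie gene table per library. The deposited TPM column sums to 1000000 over the loci assembled in that library, and the 24421 reference symbols stand beside these loci on the same scale. The authors also deposited FPKM and coverage columns from StringTie, used here only for depth, as coverage divided by FPKM (1.00 to 5.17 gigabases, median 3.05). Depth in reads is unknown, so no counting intervals are given. The authors compared genes with DESeq2 on counts, which were not used here.

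The TPM of a symbol on several lines was summed. With limma 3.58.1 in R 4.3.3, log2(TPM + 1) was fitted by group (lmFit, contrasts, eBayes with a trend) over genes whose TPM averaged 1 or more, once for the 53 SCNT libraries in 9 groups and once for the 12 fertilized libraries in 6 groups, with Benjamini-Hochberg adjustment over all genes of the fit. Aqp8 in SCNT embryos, under the filter, had two-sided exact permutation tests. On simulated data, limma called 92% of genes changed by 3 on the log2 scale and 43% of those changed by 1.5 for TE against morula (12 of 147 calls false, 11867 genes), and 76% and 43% for Max MO in the TE (2 of 121 false, 11219 genes). Python 3.11.15 with numpy 2.4.6, pandas 2.3.3 and matplotlib 3.10.9 did the rest.

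Groups and replicate numbers came from the labels. The label of one 4C library gives replicate 5 where its table is named otherwise, and the label was kept. No 2 libraries held the same values. The members and lists were chosen with earlier results of these data known. All 8 members are named in every comparison. From lists of 12 adherens junction, 18 tight junction, 18 polarity, 16 ion transport, 10 aquaporin and 13 desmosome and keratin genes, up to 4 called genes averaging 5 TPM or more with the largest changes per comparison could be named. Marker lists of 10 TE, 10 ICM and 10 cumulus genes served as checks. The cumulus markers summed to 2084 to 3377 TPM in CCs and to at most 60.4 TPM in SCNT blastocysts.

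Same-numbered libraries were taken as pairs where the correlation across genes of their deviations from the group means was over 0.1 in each of 3 or more pairs. This held for SCNT TE and ICM (6 pairs, 0.131 to 0.300) and for no other comparison. Yet only 2 of the 6 TE libraries correlated best with the ICM library of their own number. The same held for 2 of the 6 ICM libraries, so the pairing is uncertain. The fits were repeated with a pseudocount of 0.1, without the filter on genes, with the filter at 5 TPM, with TPM rescaled over the reference symbols, with quantile normalization, with the largest line of a gene, for 2 groups alone, with the replicate number as a block, for replicates 1 to 3 or 4 to 6, and without each replicate. Promoters came from a RefSeq table of GRCm38.p6.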

Additional observations from a re-analysis of the deposited data

Results flagged for a closer look

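In 7 of 70 combinations of gene and group with 4 to 10 libraries, 1 library lay far from the others in log2(TPM + 1). By chance the rule flags about 1 in 20 groups. A group with only 1 library above 0, as for Aqp8 below, is always flagged, so that rate does not apply there. Cdh1 was at 0.520 TPM in 14 hpa replicate 1, against 2.65 to 4.79 TPM in the other libraries of that stage. Cldn6 was at 5.68 TPM in E2C replicate 2, where the others had 0 to 0.407 TPM, and at 1.35 TPM in L2C replicate 2, where the others had 7.14 to 9.69 TPM. Cldn4 was at 0.743 TPM in 4C replicate 3, with the others at 0 to 0.0517 TPM. Aqp8 was at 0.0628 TPM in 6 hpa replicate 4, at 0.0542 TPM in 4C replicate 4 and at 0.0107 TPM in morula replicate 1, and was listed at 0 in all other libraries of those stages. None of these stages but the morula entered a comparison.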

How the results depend on the processing

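Of 1068 single-gene alternatives, 941 kept direction and side of the threshold, 61 lost and 15 gained a call, and 51 changed sign, none of them in a called result. Of 20 called results, 5 were called in every alternative: Atp1b1 in its 3 called SCNT comparisons and Ocln in its 2 against the morula. The calls of both genes with Max MO in the ICM were not kept in every alternative. With 2 groups fitted alone, fewer libraries estimate the spread. The calls came to 2 from 8C to morula, beside 14.9% of all genes called. They came to 0 for TE against ICM, beside 0.11% of all genes. For Max MO and Mcrs1 MO, in the TE and in the ICM, they came to 0 beside 0% of all genes. A pseudocount of 0.1 gave 2 calls from 8C to morula, 0 for TE against ICM and 1 for Mcrs1 MO in the TE. The shares of all genes called were 9.63%, 4.94% and 4.47%. Without the filter there was 1 call for TE against ICM and 1 for Mcrs1 MO in the TE, beside 2.09% and 1.95%. Quantile normalization gave 2 from 8C to morula and 1 for Mcrs1 MO in the TE, beside 11.9% and 2.93%. Replicates 4 to 6 gave 5 calls for TE against morula, beside 27% of all genes. Replicates 1 to 3 gave 0 for TE against ICM, beside 8.43%. The causes were not tested.

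With the replicate number as a block, 1 call remained for Mcrs1 MO in the TE, beside 4.68% of all genes. Cldn6 was lost there (adjusted p = 0.0559), and the numbers do not pair these libraries. No other call of the 8 genes changed, including those for SCNT TE against ICM. The block covers all groups of a fit, so it is not a test of TE and ICM pairs.

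Leaving out 1 replicate gave 2 to 4 calls from 8C to morula, 0 to 2 for TE against ICM, 0 to 3 for fertilized TE against ICM, 0 for either morpholino in the TE, 3 to 7 for Max MO and 0 to 3 for Mcrs1 MO in the ICM, and 0 to 2 for either difference between lineages. It turned the sign of these differences: against the morula, Aqp3 (-0.82 to 0.17) and Tjp1 (-0.015 to 0.58) in the TE and Cdh1 (-0.25 to 0.31) and Cldn6 (-1.50 to 0.023) in the ICM, and for SCNT TE against ICM, Tjp1 (-0.50 to 0.16), Ocln (-0.22 to 0.21), Aqp3 (-0.064 to 0.46) and Aqp8 (-0.26 to 0.66). In fertilized blastocysts it turned Ocln (-0.58 to 0.39), Cdh1 (-0.039 to 0.83) and Aqp8 (-4.49 to 1.08) for TE against ICM, Aqp8 (-0.76 to 0.76) and Ocln (-0.60 to 0.11) for Max MO and Ocln (-0.55 to 0.17) for Mcrs1 MO in the TE. In the ICM it turned Cldn6 (-0.93 to 0.19) and Cldn4 (-2.47 to 0.10) for Max MO and Ocln (-0.65 to 0.32), Tjp1 (-1.24 to 0.29) and Cldn4 (-0.85 to 1.72) for Mcrs1 MO. Between the morpholinos in the TE it turned Cdh1 (-0.15 to 0.22), Ocln (-0.10 to 0.22) and Atp1b1 (-0.34 to 0.0054). Beside the counts of calls above, 8.14% to 11% of all genes were called from 8C to morula. For SCNT TE against ICM it was 3.29% to 5.49%. The fertilized fits keep 1 library in a group, and their share of all genes called moved with the library left out. With either morpholino in the TE that share fell at each removal, so the 0 calls there say nothing particular to the 8 genes.

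Within replicates 1 to 3 the sign turned for Tjp1 from 8C to morula (0.50), Tjp1 (-0.59) and Cldn4 (-0.65) for TE against morula, Cdh1 (-0.24), Tjp1 (-0.36) and Aqp8 (-0.0051) for ICM against morula and Aqp3 (-0.092) for TE against ICM. Within replicates 4 to 6 it turned for Aqp3 (0.14) for TE against morula, Cldn4 (0.97) for ICM against morula and Tjp1 (0.037), Ocln (0.14) and Aqp8 (-1.15) for TE against ICM. Quantile normalization turned Cdh1 for ICM against morula (-0.24) and Ocln for TE against ICM (0.041), a pseudocount of 0.1 turned Tjp1 for TE against ICM (0.12) and Aqp8 for Max MO in the TE (-0.26), and rescaling turned the latter too (-0.035). TPM tables carry no counts, so whether a value near 0 is a missed transcript cannot be told from them, and 2 libraries per group limit what the morpholino comparisons can show.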

Other observations

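In the 12 fertilized libraries, a set of companions chosen after the levels had been seen, Aqp8 followed Lyar (Pearson r = 0.93), Tomm40 (0.92) and Procr (0.91) most closely among 8182 genes with a mean of at least 5 TPM, and Cldn6 followed Eif2s1, Sgce and Schip1 (0.91 each). The libraries share 3 morpholinos and 2 lineages, so these values describe that pattern.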
